A study of Mus musculus with 6 samples.

Results

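The genes described here are 8 genes of the MHC class II pathway of the mouse, taken as a set by name from the 24077 genes of a single-cell table and the 30828 genes of the spatial tables, and all 8 were present in both. They are the classical chains H2-Aa, H2-Ab1 and H2-Eb1, the invariant chain Cd74, the peptide exchange genes H2-DMa, H2-DMb1 and H2-Oa, and the transactivator Ciita. Their levels were followed in the uteri of CD-1 mice at 12 months of age. On neonatal days 1 to 5 they had received subcutaneous injections of corn oil alone (CO) or of diethylstilbestrol (DES), a synthetic estrogen, at 1 mg/kg/day. No transgene or engineered allele was used in either group. Dissociated uterine horn cells were pooled from 2 mice for the CO library and from 4 mice for the DES library. Visium sections, in which RNA is captured on a grid of spots, were made from 2 further mice per group, and each section (CO A, CO B, DES A, DES B) was 1 mouse. The CO mice were collected in estrus and the DES mice were in persistent estrus. The DES sections had been selected because they held adenocarcinoma, so they do not stand for every DES uterus.

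MHC class II molecules are pairs of an alpha and a beta chain that hold peptides at the cell surface for CD4+ T cells. H2-Aa and H2-Ab1 encode the 2 chains of I-A, and H2-Eb1 encodes the beta chain of I-E. Cd74 escorts new class II molecules and blocks their groove until proteases, cathepsin S (Ctss) among them, cut it away. The H2-DM pair then exchanges the remaining fragment for a peptide, and H2-O restrains H2-DM, mainly in B cells. Dendritic cells, macrophages and B cells express these genes constitutively, while epithelial cells can be induced to express them, classically by interferon gamma acting through Irf1 and Ciita.

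On GRCm38 (mm10), the GENCODE annotation places 6 of the genes within 224 kb of chromosome 17, as protein-coding genes whose exonic reads were counted. H2-Oa lies at chr17:34092340-34095234, H2-DMa at chr17:34119541-34139101, H2-DMb1 at chr17:34153072-34160230, H2-Ab1 at chr17:34257689-34269419 and H2-Eb1 at chr17:34305867-34316674, all on the plus strand. H2-Aa lies at chr17:34282744-34287823 on the minus strand. Ciita lies apart from them, at chr16:10480059-10528418 on the plus strand. H2-DMb1 has the near-identical neighbour H2-DMb2, and H2-Eb1 has H2-Eb2, so the split of counts within each pair is uncertain.

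Promoter stretches of members are shown here with the short elements through whose binding proteins Ciita is known to act. In the RefSeq promoter sequences (GRCm38.p6, 250 bases before to 50 after each start), 5 of the 8 genes had an entry. Both strands were searched for the letters TGATTGG (core of the Y box) and ACNGATG (core of the X box). The Y box core was found in 7.82%, the X box core in 9.85% and both in 0.703% of 32851 promoters of this length. H2-Aa held the Y box core 50 bases before its start, H2-Eb1 61, H2-DMb1 63 and H2-Oa 45. These distances run from the RefSeq starts, which in H2-DMb1 and H2-Oa lie downstream of the GENCODE starts given above. The letters of the X box core lay 27 bases upstream of the Y box core in H2-Eb1 and 28 bases upstream in H2-DMb1, without overlap. Matches of these letters lay farther away in H2-Oa (137 bases before the start) and in H2-Aa (232 bases before the start, on the other strand). Such a match is not shown to be the X box of the gene, and X boxes with other letters were not searched. Of the matches to these X box letters, only that of H2-Eb1 lies within the stretches shown. Neither core was found at the 2 RefSeq starts of H2-DMa (windows chr17:34122582-34122881 and chr17:34125268-34125567). Both lie downstream of its GENCODE start, whose promoter was not searched. The stretches below run 5′ to 3′ on the strand of the gene, at chr17:34287824-34287973 (minus strand) for H2-Aa, chr17:34305717-34305866 (plus) for H2-Eb1, chr17:34153117-34153146 (plus) for H2-DMb1 and chr17:34092323-34092352 (plus) for H2-Oa. Capitals mark the motif letters.
H2-Aa: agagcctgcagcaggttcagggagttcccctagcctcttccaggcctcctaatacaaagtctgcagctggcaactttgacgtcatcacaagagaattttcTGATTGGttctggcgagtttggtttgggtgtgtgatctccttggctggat
H2-Eb1: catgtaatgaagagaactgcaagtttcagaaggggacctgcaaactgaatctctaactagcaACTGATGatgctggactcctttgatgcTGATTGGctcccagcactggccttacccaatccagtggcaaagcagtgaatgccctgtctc
H2-DMb1: gattcactcagTGATTGGtctgacctgcct
H2-Oa: gagaactgctcTGATTGGctgcttaccgca

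The CO library held 32387 cells and the DES library 16312 cells, with medians of 6779 and 10154 unique molecular identifiers (UMIs, counted molecules) per cell, and 12253 and 9701 of them carried a cell type from the authors. The 2 libraries shared 180 barcodes, 13 on CO and 46 on DES epithelial cells. The sections CO A, CO B, DES A and DES B held 1433, 1834, 1575 and 1357 spots with 9117099 to 12506177 UMIs each, all on 1 slide. CO B had a tissue fold, and its summed basal cell markers reached 159.7 counts per 1000000 UMIs (CPM) against 3.36 in CO A. Single-cell levels are the CPM of UMIs summed over the cells of a group, with exact Poisson 95% intervals that cover counting error only. With 1 pooled library per condition there is no replicate and no test in the single-cell data, and a gene was called different in size where it had at least 10 CPM in either library and differed by at least 2-fold. Levels count 3′ ends and were not scaled by gene length, so a gene is compared with itself across groups.

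In epithelial cells every MHC class II gene with enough counts was higher in the DES library. All 6 members that passed the 10 CPM minimum were at least 2-fold higher in DES, against 7.06% of the 8445 genes that passed it, and none was lower, against 7.21%. Their median difference was 3.77 on the log2 scale, and that of the 8445 genes was 0.0567. The 2583 CO and 5255 DES epithelial cells had similar depth (medians of 23458 and 21900 UMIs) and both expressed Epcam, an epithelial adhesion molecule, at 1040.2 CPM in CO and 793 in DES. The keratin Krt18 stood at 686 and 666 CPM, Krt8 at 1549 and 832, Krt19 at 1229 and 635 and the cadherin Cdh1 at 241 and 179, so that the 5 epithelial markers summed to 4745 CPM in CO and 3104 in DES.

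The classical chains were nearly silent in CO epithelium. H2-Aa, the I-A alpha chain, was at 3.48 CPM in CO (95% interval 3.08 to 3.91) and 70.1 in DES (68.8 to 71.3), 20.1 times as high. Its partner H2-Ab1 was at 7.30 CPM (6.71 to 7.92) in CO and 73.97 (72.7 to 75.3) in DES, 10.1 times as high. H2-Eb1 was at 2.37 CPM (2.05 to 2.74) in CO and 43.8 (42.9 to 44.8) in DES, 18.5 times as high. H2-Aa ranked 25 of 8445 genes by its ratio of DES to CO. The invariant chain Cd74 was at 28.8 CPM (27.6 to 30.02) in CO and 532 (529 to 536) in DES, 18.5 times as high.

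The peptide exchange genes differed less. H2-DMa was at 3.16 CPM (2.78 to 3.58) in CO and 16.7 (16.1 to 17.3) in DES, 5.28 times as high, and H2-DMb1 was at 7.89 (7.29 to 8.54) and 24.7 (23.98 to 25.5), 3.13 times as high. H2-Oa, the restraint on H2-DM, had 3 UMIs in all CO and 19 in all DES epithelial cells, which is too few for a ratio. Ciita stayed below the 10 CPM minimum, with 33 UMIs in CO (0.419 CPM, 0.288 to 0.588) and 690 in DES (3.92 CPM, 3.63 to 4.22), so it enters no count. Its 2 intervals were far apart. The plot of levels by cell type sets the epithelium beside the other cells.

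**Figure D1:**
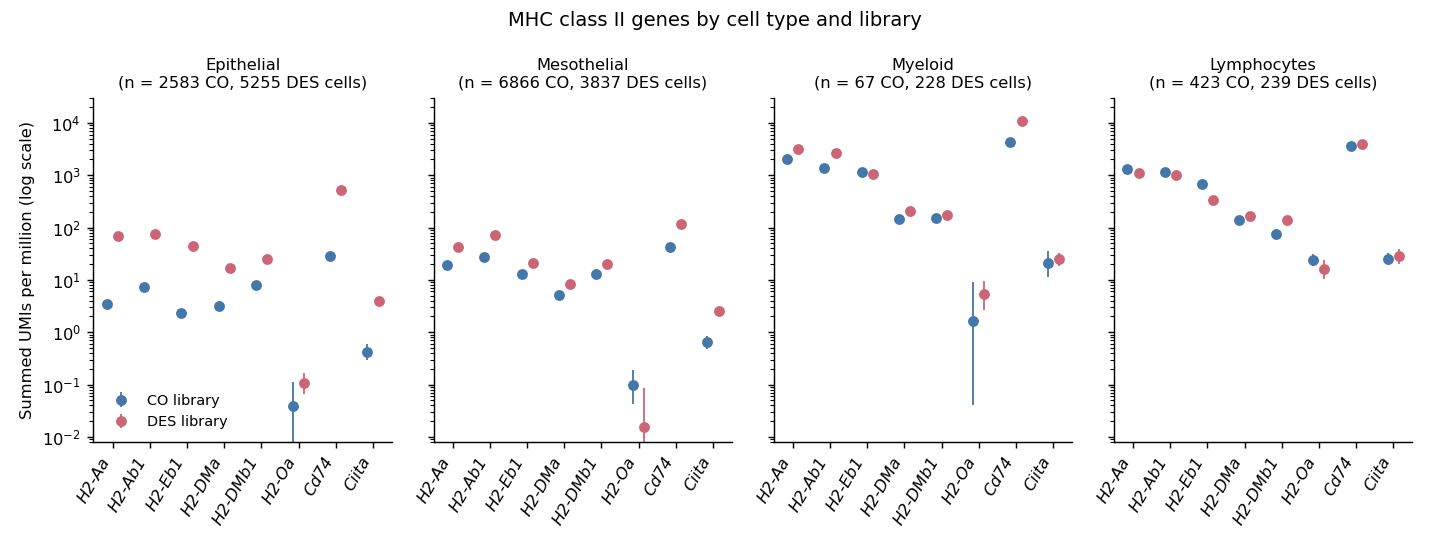
Level of each of the 8 genes (CPM of summed UMIs, log axis) in epithelial, mesothelial, myeloid and lymphocyte cells of the CO library (blue) and the DES library (red), with exact Poisson 95% intervals as bars. Cd74 stands at 28.8 in CO and 532 in DES epithelium, while lymphocytes hold 3669 and 3919 and myeloid cells 4404 and 10969.

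More DES than CO epithelial cells carried these transcripts, and they carried more of them. After each cell was thinned to 3000 UMIs, which left 2562 CO and 5201 DES cells, a Cd74 UMI was found in 6.28% of CO cells (exact Clopper-Pearson interval 5.38 to 7.29) and 40.9% of DES cells (39.5 to 42.2). Without thinning the shares were 30.2% and 71.5%. H2-Aa was found in 0.859% and 13.2% of thinned cells, H2-Ab1 in 1.76% and 14.8%, and H2-Eb1 in 0.429% and 10.4%. Any of these 3 chains was found in 2.69% of CO and 25.1% of DES cells, and Cd74 together with one of them in 0.703% and 20.9%. Ciita was found in 0 of 2562 CO cells, where the 95% interval reaches 0.144%, and in 0.942% of DES cells. Cells with at least 5 Cd74 UMIs made up 0.117% of thinned CO cells (3 cells) and 12.3% of thinned DES cells (642 cells), and the highest cell held 6 in CO and 38 in DES.

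Free RNA in droplets can give a UMI to a cell that does not express a gene, so the shares were set beside lymphocytes with T cell markers, which should lack class II. Among these, thinned in the same way, 6 of 49 CO cells (12.2%, interval 4.63 to 24.8) and 10 of 43 DES cells (23.3%, 11.8 to 38.6) had a Cd74 UMI, at median depths of 3222 and 3970 UMIs before thinning. The epithelial cells were deeper (medians of 23458 and 21900 UMIs), so the same free RNA makes up a smaller part of their UMIs. Thinning keeps that difference, so a share at or below that of the T cells cannot show absence of expression. The CO epithelial share of 6.28% was not above that of the CO T cells. It is read neither as expression nor as its absence, and it averages unequal clusters. In CO cluster 5 the share was 31.5% (24.6 to 39.2), against an upper bound of 24.8% for the CO T cells, so its interval overlapped theirs only at the edge. The DES epithelial share of 40.9% was above that of the DES T cells, and its lower bound of 39.5% lay above their upper bound of 38.6%. For the chains the comparison with T cells was less clear. H2-Aa was found in 0 of the 49 CO and 1 of the 43 DES T cells (2.33%, 0.0589 to 12.3), whose upper bound just met the 12.3 to 14.1 of the DES epithelium. H2-Ab1 was found in 7 of the 43 DES T cells (16.3%, 6.81 to 30.7) and H2-Eb1 in 3 (6.98%, 1.46 to 19.1). The pooled DES epithelial shares of 14.8% and 10.4% were not above those of these T cells. By cluster, however, the H2-Ab1 share ran from 0.813% (0.0206 to 4.45) in DES cluster 13 to 47.9% (41.1 to 54.8) in DES cluster 7. These intervals lay below and above that of the T cells, which therefore do not give 1 background for all DES cells. In CO T cells H2-Ab1 was found in 1 and H2-Eb1 in 0 of the 49 cells. Before thinning, H2-Ab1 had 1 UMI in CO T cells (3.53 CPM, 0.0892 to 19.6) and 8 in DES T cells (33.2 CPM, 14.3 to 65.3). Its level in the cells taken as background was thus also higher in DES, with intervals that overlapped. H2-Aa had 1 UMI in the T cells of each library, H2-Eb1 0 in CO and 5 in DES, and H2-DMa 4 in CO and 1 in DES. By level, the DES epithelium was above the DES T cells for H2-Aa (upper bound 23.1) and H2-Ab1 (65.3), while for H2-Eb1 the intervals overlapped (6.73 to 48.4 in T cells).

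Transcripts of immune cells were low in the epithelial cells of both libraries and differed by less than the classical chains. Lyz2, a lysozyme gene of myeloid cells, was at 4.89 CPM in CO and 13.3 in DES epithelium. C1qa (a complement gene of macrophages) was at 0.584 and 2.41, and Ptprc, which encodes the leukocyte antigen CD45, at 9.71 and 4.23. The 9 myeloid markers summed to 51.8 CPM in CO and 75.2 in DES epithelium, against 12604 and 28040 in myeloid cells. The dendritic markers summed to 1.83 and 2.01 and the B cell markers to 11.2 and 8.09, Itgax was at 0.165 and 0.176, and Flt3 had no UMI in either library. Per 100 Cd74 UMIs, DES epithelial cells held 2.50 Lyz2 UMIs, and DES myeloid cells held 71.8, DES lymphocytes 213 and DES mesothelial cells 15.0. Cells without a single UMI of any immune list, a choice made after seeing the data, held Cd74 at 20.04 CPM (17.6 to 22.7, 639 cells) in CO and 561 (549 to 572, 983 cells) in DES, and H2-Aa at 2.41 and 66.1 CPM.

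Within the DES epithelium, cells with a Ciita UMI held more of its targets. The 487 such cells had Cd74 at 1313 CPM, H2-Aa at 203, H2-Ab1 at 186 and H2-Eb1 at 118, and the 4768 cells without one had 388, 45.5, 53.4 and 30.2. The summed myeloid markers were 68.5 and 76.4 CPM in the same cells. In CO, 28 cells had a Ciita UMI and held Cd74 at 141 CPM, against 27.1 in the other 2555. The summed myeloid markers of these CO cells were 71.2 CPM with a Ciita UMI and 51.5 without, and the median depths 43454 and 23413 UMIs. A Ciita UMI is more often seen in deeper cells, and the median depth was 51771 UMIs with one and 20329.5 without in DES, whose part in the contrast was not tested.

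The class II genes were uneven among the authors' 16 clusters of DES epithelial cells. Cd74 ran from 32.6 CPM in DES cluster 13 over a median of 187 to 1628 (1602 to 1654) in DES cluster 7, 49.98 times the lowest, where 89.8% of thinned cells had a UMI. DES clusters 2, 15 and 9 followed at 1391, 1380 and 1065 CPM, and the intervals of clusters 2 (1372 to 1410.2) and 15 (1337 to 1424) overlapped. DES clusters 1, 5 and 6 stood at 765, 725 and 699 CPM, DES cluster 10 at 239.8 and DES cluster 0 at 135. The other 7, clusters 14, 4, 3, 8, 11, 12 and 13, lay between 32.6 and 75.5 CPM. The DES epithelium therefore held clusters with and without high Cd74, rather than 1 common level.

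The 15 CO clusters were lower and closer together. Cd74 ran from 4.41 CPM in CO cluster 14 over a median of 19.02 to 150.3 (141 to 160.0) in CO cluster 5, where 31.5% of thinned cells had a UMI, and the next highest, CO clusters 9 and 12, were at 57.4 and 57.1. Of the 16 DES clusters, 8 lay above every CO cluster for Cd74, and the counts were also 8 for H2-Aa, H2-Ab1, H2-DMa and Ciita, 9 for H2-Eb1 and 16 for H2-DMb1. The ranges of H2-DMb1 were narrow, from 5.84 to 10.9 CPM in CO and from 12.8 to 52.9 in DES clusters. The sum of the 3 classical chains reached 641 CPM in DES cluster 7 and 47.8 in CO cluster 9, its highest in each library.

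**Figure D2:**
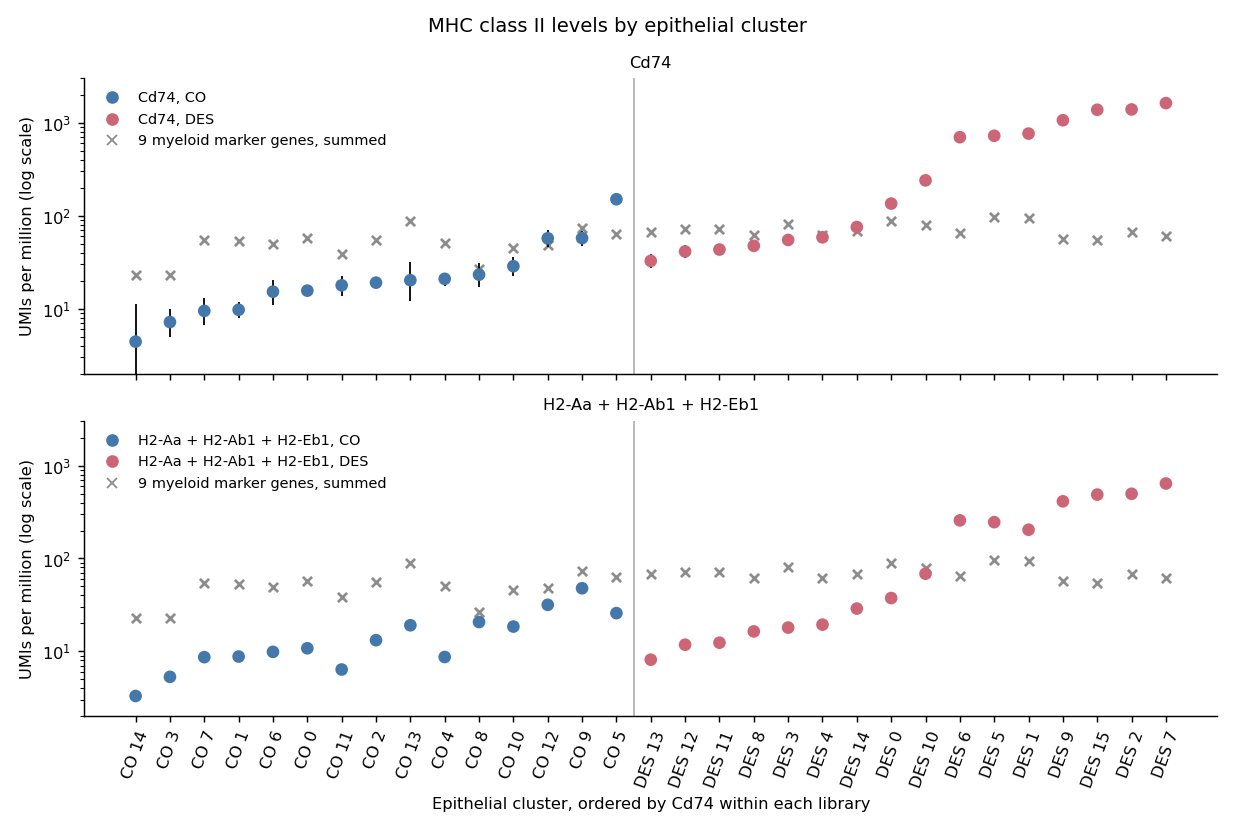
Cd74 (top) and the sum of H2-Aa, H2-Ab1 and H2-Eb1 (bottom) in each of 15 CO (blue) and 16 DES (red) epithelial clusters, in CPM of summed UMIs on a log axis, ordered by Cd74. Grey crosses are the sum of 9 myeloid markers, and bars, drawn for Cd74 only, are exact Poisson 95% intervals. Cd74 spans 4.41 to 150.3 in CO and 32.6 to 1628 in DES clusters, while the myeloid markers span 22.9 to 88.7 and 54.6 to 95.7.

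The members kept step across the DES clusters. Over the 16 clusters, which share 1 library, the Pearson correlation with Cd74 on the log2 scale was 0.995 for H2-Aa, 0.992 for H2-Ab1, 0.995 for H2-Eb1, 0.988 for H2-DMa, 0.882 for H2-DMb1 and 0.967 for Ciita. It was 0.572 for H2-Oa, which has almost no counts. For the summed myeloid markers it was -0.107, for the summed B cell markers -0.687 and for the clusters' median depth 0.190. For the interferon-responsive Irf1 it was 0.666. Over the 15 CO clusters the values were lower, at 0.724 for H2-Aa, 0.817 for H2-Ab1, 0.720 for H2-Eb1 and 0.695 for Ciita, with 0.516 for the myeloid markers. These are descriptions over clusters, which are not replicates. Ciita itself ranged from 0.263 CPM in DES cluster 13 to 11.5 in DES cluster 7 and 11.3 in DES cluster 15.

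The class II transcripts were also present in basal cells, which the CO uterus almost lacked. In the clustering of both libraries together, the DES cells of clusters 8 and 11 (351 and 257 cells) held the basal keratin Krt14 at 3858 and 3047 CPM. Their Cd74 was at 448 (432 to 464) and 437 CPM (417 to 458), H2-Aa at 62.8 and 59.6, H2-Ab1 at 92.0 and 112, and H2-Eb1 at 63.0 and 55.9. These basal clusters were thus near the average of the DES epithelium for Cd74, and the DES cells of integrated cluster 12 were the highest at 1727. In integrated cluster 9, which held both conditions, Cd74 was at 78.4 CPM in 45 CO cells and 32.9 in 297 DES cells, so that DES cells there were not above CO cells. Cluster 18 held 18.2 in CO and 16.7 in DES.

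In mesothelial cells, the sheet that covers the organ, the chains differed in the same direction by less. H2-Aa was at 18.9 CPM in CO and 42.9 in DES, H2-Ab1 at 27.0 and 73.2, and Cd74 at 43.0 and 115, and these 3 of 5 members past the minimum were at least 2-fold higher, against 1.89% of genes. H2-Eb1 was at 12.8 and 20.6 and H2-DMb1 at 12.8 and 20.2 CPM, below 2-fold. A Cd74 UMI was found in 9.79% of CO and 25.3% of DES mesothelial cells after thinning. Both shares lay within the intervals of the T cells of their library. The mesothelial cells were deeper than those T cells (medians of 10436 and 12329 UMIs), so this cannot show absence of expression. The DES epithelium was above the DES mesothelium for H2-Aa, whose intervals did not overlap, but not for H2-Ab1, at 73.97 (72.7 to 75.3) and 73.2 CPM (71.1 to 75.3). In CO the epithelium was below the mesothelium for both chains.

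The professional antigen-presenting cells were the highest in both libraries. Myeloid cells (67 in CO, 228 in DES) had H2-Aa at 2006 and 3141 CPM, H2-Ab1 at 1391 and 2638 and H2-Eb1 at 1175 and 1037. Their Cd74 was at 4404 and 10969 CPM, the only 1 of 7 members past the minimum that was at least 2-fold higher, against 4.89% of genes, and it fell short of 2-fold in the mean over cells. None was 2-fold lower, against 22.8% of genes. Ciita was at 21.1 and 25.0 CPM.

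Lymphocytes (423 in CO, 239 in DES) were a mixture. Their H2-Aa was at 1336 CPM in CO and 1086 in DES, Cd74 at 3669 and 3919 and Ciita at 25.4 and 28.2. H2-Oa was higher in lymphocytes than in the epithelium, at 24.0 CPM (18.0 to 31.3) in CO and 16.1 (10.3 to 24.0) in DES, with overlapping intervals. Within them it was highest in cells with dendritic markers, at 206 CPM (126 to 317) in CO and 152 (78.7 to 266) in DES, and stood at 22.2 and 46.4 in cells with B cell markers. None of the 8 members was at least 2-fold higher in DES, against 6.73% of genes. H2-Eb1 alone was 2-fold lower, at 693 and 341 CPM, against 5.05%. Sorted by their markers, the cells with dendritic markers (19 and 11 cells) held Cd74 at 18425 and 10935 CPM, those with B cell markers (79 and 16 cells) at 3271 and 9033, and those with T cell markers at 45.8 and 104. The group named lymphocytes thus included antigen-presenting cells, as 148 CO and 128 DES cells had myeloid markers.

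The remaining cell types were low. CO stromal cells (1326) had Cd74 at 14.9 CPM and no Ciita UMI, endothelial cells (341) had Cd74 at 20.9, pericytes (75) at 22.7, myocytes (85) at 10.0 and the Ctla2a group (465) at 7.89. The DES library held 1 stromal and 5 endothelial cells, so no DES value is given for them from single cells. A DES myeloid group high in Lyz2 (136 cells) held Cd74 at only 214 CPM and H2-Aa at 118. Its 9 myeloid markers summed to 33245 CPM, against 28040 in the DES myeloid cells. A high myeloid sum thus need not come with high class II. Among cells that carried no cell type, 6 of 6 members past the minimum were at least 2-fold higher in DES, against 4.44% of genes. For H2-Aa the order in CO ran from myeloid cells over lymphocytes and mesothelial cells to endothelial cells (11.8 CPM), a group of 22 cells high in Stmn1 (9.45), myocytes (8.21), the Ctla2a group (6.81), epithelium (3.48), stroma (3.41) and pericytes (0 UMIs). The intervals of epithelium and stroma overlapped, and that of the Ctla2a group (4.10 to 10.6) lay above that of the epithelium. That of the 75 pericytes reached 10.5 CPM, so their place in this order is open. In DES it ran from myeloid cells (3141) over lymphocytes (1086) and the Lyz2-high group (118) to the epithelium (70.1) and mesothelium (42.9).

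Other genes of the pathway did not move as a block. Of 14 pathway genes beside the members, 13 were in the table and 5 passed the minimum in epithelial cells, of which 1 was at least 2-fold higher and 1 lower, with a median log2 difference of 0.0493. Cathepsin S (Ctss), which trims Cd74 in professional antigen-presenting cells, was at 21.1 CPM in CO and 55.9 in DES, 2.65 times as high. Cathepsin L (Ctsl), a protease with that role in the thymic epithelium, was at 1220.3 and 169 CPM, 0.139 times as high. Of the factors that bind the X box with Ciita, Rfx5 was at 10.2 and 10.6 CPM and Rfxap at 15.99 and 17.5, both under 2-fold, and Rfxank, below the minimum, was at 6.21 and 9.66, 1.56 times as high. The costimulatory genes Cd80, Cd86 and Cd40 had 2, 14 and 9 UMIs in CO and 2, 67 and 46 in DES epithelium, all below the minimum.

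Genes of the interferon gamma pathway were not higher in the DES epithelium. None of 6 past the minimum was at least 2-fold higher or lower, and their median log2 difference was -0.330. Irf1 was at 69.0 CPM in CO and 42.1 in DES, and the receptor genes Ifngr1 and Ifngr2 at 64.4 and 64.7 and at 109 and 70.7. Ifng itself, the ligand, had 1 UMI in CO and 5 in DES epithelial cells. Over the 14 groups of cell type and library with at least 50 cells, the 10 genes whose log2 levels were most like the mean of H2-Aa, H2-Ab1, H2-Eb1 and Cd74 included Runx3, Otulin, Aif1, Ccl4, Il21r, Pld4, Plbd1, Gpr65 and H2-DMb2, with Pearson correlations of 0.960 down to 0.935 among 6222 genes.

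The sections gave a replicated view, with 2 mice per condition. In whole sections, both DES sections were above both CO sections for every member. In the order CO A, CO B, DES A and DES B, Cd74 was at 169.5, 273, 872 and 2317 CPM, and H2-Aa at 59.6, 102, 336 and 651. H2-Ab1 was at 80.9, 143, 418 and 821 CPM and H2-Eb1 at 38.3, 78.9, 185 and 789.8 in the same order. DES B was above DES A in each of these 4 genes. H2-DMa was at 11.03, 22.5, 43.7 and 100.4 CPM, H2-DMb1 at 12.6, 15.5, 48.3 and 102, and Ciita at 2.40, 4.26, 7.02 and 20.2. H2-Oa had 17, 20, 31 and 30 UMIs, and was the member whose groups lay closest. Separation of the groups was common, however, as 47.3% of 10510 genes with at least 10 CPM in a section had both DES sections above both CO sections. H2-Oa, at most 3.40 CPM in a section, lies outside that set of genes.

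With 2 mice against 2, none of the 8 members passed in whole sections. Under edgeR (quasi-likelihood F-test, Benjamini-Hochberg adjustment), H2-Aa was closest, with a log2 difference of 2.42 ± 0.45 (SE) and an adjusted p of 0.0536, and Cd74 had 2.66 ± 0.56 and 0.0687. H2-DMb1 had an adjusted p of 0.0559, H2-Ab1 of 0.0625, H2-Eb1 of 0.115, H2-DMa of 0.118, Ciita of 0.162 and H2-Oa of 0.291. The background was 5.30% of 14098 genes called. The members' median log2 difference was 2.25, and that of all genes was -0.01. At an unadjusted p under 0.05 there were 7 members, beside 3438 of all 14098 genes, and DESeq2 called 7, beside 1748 of 19821 genes. Without CO A, H2-Aa passed (adjusted p = 0.0474), and without CO B, H2-Aa (0.0292) and H2-Ab1 (0.0327) passed. Without DES B the log2 differences of Cd74 and H2-Eb1 fell to 1.73 and 1.42, and without DES A they were 3.21 and 3.58, with none of the 8 members passing in either case.

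The sections differed in makeup as well. Summed myeloid markers were at 536, 1001, 2549 and 1526 CPM in CO A, CO B, DES A and DES B, plasma cell markers at 254, 202, 1069 and 1304, and basal cell markers at 3.36, 159.7, 9526 and 5644. Summed smooth muscle markers were at 9030.2, 9845, 1827 and 2017, and the 4 tested were all lower in DES. By the same edgeR test 2 of 3 pericyte markers and 1 of 3 natural killer cell markers were lower, and 1 of 3 mesothelial markers was higher. By edgeR 0 of 9 myeloid markers passed in whole sections, 2 had an unadjusted p under 0.05, and DESeq2 called 2. Summed T cell markers were at 4.48, 5.35, 17.2 and 30.4 CPM and B cell markers at 8.0, 13.96, 18.1 and 25.6. The dendritic cell markers were at 36.1, 44.4, 88.4 and 61.1, with 1 of 7 called higher by edgeR and by DESeq2. All 4 T cell markers had an unadjusted p under 0.05 and none passed in edgeR, while DESeq2 called all 4, and 1 of the 2 B cell markers tested was called by both tools. DES A was above DES B in myeloid markers, and DES B was above DES A in T cell markers, B cell markers and Cd74. In sums over spots, fewer cells of a type and less RNA per cell cannot be told apart, and the part of these cells in the class II levels was not tested.

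**Figure D3:**
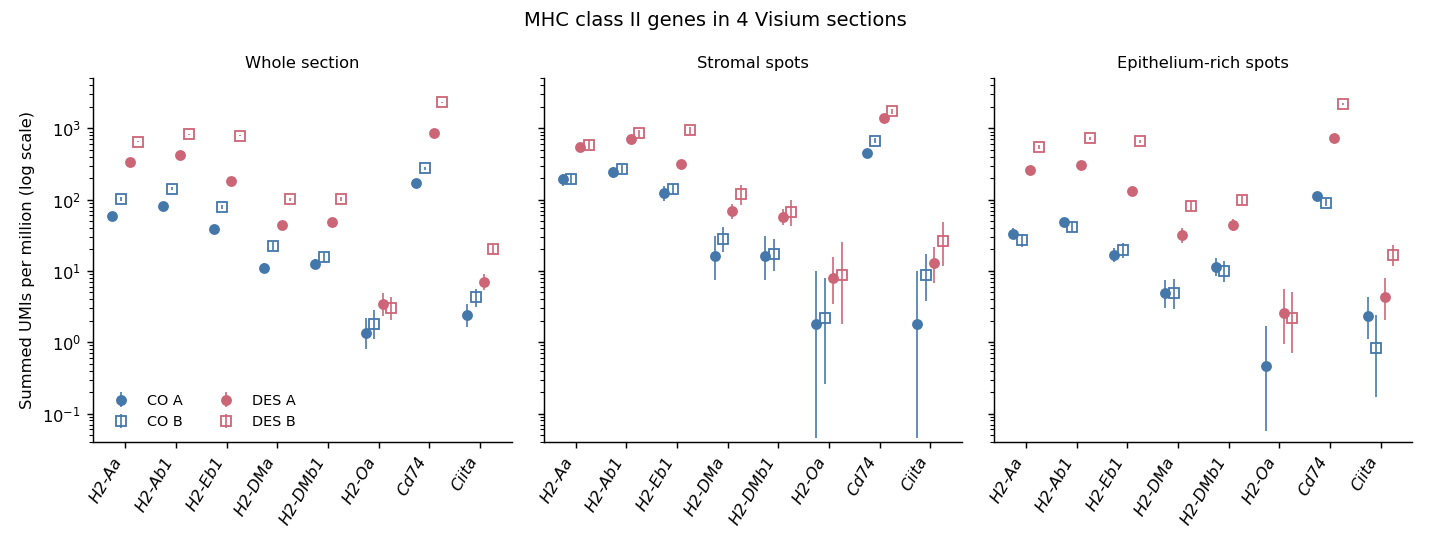
Level of each of the 8 genes in the 4 sections (CPM of summed UMIs, log axis), for whole sections, stromal spots and epithelium-rich spots, with CO in blue, DES in red, filled circles for section A, open squares for section B and exact Poisson 95% intervals as bars. Both DES sections lie above both CO sections for Cd74 in all 3 panels, as in epithelium-rich spots with 111 and 90.2 in CO against 729 and 2175 in DES, and H2-Oa of CO B, with 0 UMIs there, is not drawn.

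Epithelium-rich spots, the 20% of each section with the highest summed epithelial markers (287, 367, 315 and 271 spots), held the clearest difference. There 6 of 7 members tested were higher in DES, against 4.41% of 11733 genes called higher, and their median log2 difference was 3.22, against -0.02 for all genes. H2-Aa was at 33.4 and 26.7 CPM in the CO sections A and B and at 260.4 and 549 in the DES sections A and B, a log2 difference of 3.44 ± 0.43 (SE; edgeR quasi-likelihood test, adjusted p = 0.0192). H2-Ab1 was at 48.2, 40.9, 301 and 724 CPM (3.22 ± 0.48, adjusted p = 0.0248, same edgeR test). H2-Eb1 was at 16.8, 19.4, 133 and 659 CPM (4.15 ± 0.80, adjusted p = 0.0435, same edgeR test). The CO sections lay close together for all 3 chains, and DES B was again above DES A.

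Cd74 in these spots was at 111, 90.2, 729 and 2175 CPM (3.55 ± 0.57, edgeR adjusted p = 0.0301). H2-DMa was at 4.91 in both CO sections and at 31.6 and 81.4 in DES (3.21 ± 0.54, edgeR adjusted p = 0.0327), and H2-DMb1 at 11.5, 10.1, 44.1 and 99.9 (2.43 ± 0.45, edgeR adjusted p = 0.0401). Ciita had 10, 3, 10 and 38 UMIs and did not pass (2.37 ± 0.86, edgeR adjusted p = 0.158), and H2-Oa, with 2, 0, 6 and 5 UMIs, was below the filter. Without DES B, H2-DMa (adjusted p = 0.0794) and H2-DMb1 (0.125) no longer passed and the others did, and the log2 differences of Cd74 and H2-Eb1 were 2.53 and 2.55. Without DES A those of Cd74 and H2-Eb1 were 4.15 and 4.91. Without CO A, Ciita passed as well, at 3.34 with an adjusted p of 0.0406. With the top 30% of spots H2-Eb1 no longer passed (3.83, edgeR adjusted p = 0.0566).

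Myeloid markers were also higher in the epithelium-rich spots of DES. Of 9 myeloid markers 4 passed, as Lyz2 (35.6, 79.3, 1256 and 489 CPM, log2 difference 3.62, edgeR adjusted p = 0.0313), Csf1r (2.30, 0.0307), C1qa (2.01, 0.0161) and C1qc (1.72, 0.0202), and the list summed to 229, 365, 1962 and 1094 CPM. At an unadjusted p under 0.05 there were 8 of the 9, and DESeq2 called 5. The dendritic cell marker Itgax passed too (2.99, edgeR adjusted p = 0.0474). Summed plasma cell markers were at 195, 129, 824 and 630.2 CPM and basal cell markers at 4.68, 178, 9299.8 and 6693, while the 5 epithelial markers, at 5080.1, 3559, 4754 and 5105 summed, did not pass (0 of 5 by edgeR, by DESeq2 or at an unadjusted p under 0.05). A spot covers several cells, so class II RNA in it can come from epithelial or immune cells, and the part of each was not tested. Lyz2 was higher in DES A than in DES B, while Cd74 and the summed T cell markers (1.40, 0.273, 7.35 and 21.6 CPM) were higher in DES B.

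The other genes of the pathway gave 1 higher and 1 lower of 9 tested in these spots by edgeR. At an unadjusted p under 0.05 there were 4, and DESeq2 called 3. H2-DMb2 had a log2 difference of 3.25, Cd86 of 2.39 and Cd40 of 1.75, with edgeR adjusted p of 0.104, 0.120 and 0.196. Rfx5 (0.11), Rfxank (0.17), Lgmn (-0.12) and Rfxap (-0.40) did not pass either. Ctss was at 64.3, 88.0, 233 and 282 CPM (log2 difference 1.45, edgeR adjusted p = 0.0307) and Ctsl at 1577, 961, 545 and 363 (-1.81, 0.0422), the same directions as in the single epithelial cells. By edgeR 0 of 8 interferon gamma genes passed, 3 had an unadjusted p under 0.05, and DESeq2 called 1. Irf1 was at 80.2, 91.3, 99.5 and 153 CPM.

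In stromal spots, the spot clusters that the study took as endometrial stroma (101, 188, 211 and 132 spots), the DES sections were again above the CO sections but no member passed. Cd74 was at 449 and 667 CPM in CO and 1377 and 1735 in DES, and H2-Aa at 192, 197, 545 and 589. H2-Ab1 was at 244, 268, 705 and 846, and H2-Eb1 at 124, 141, 320.1 and 935 CPM. None of the 6 members tested was called, against 1.46% of 8914 genes, with edgeR adjusted p from 0.0554 (H2-Aa) to 0.0981 (Cd74) and a median log2 difference of 1.68 against 0.00. All 6 had an unadjusted p under 0.05, beside 1189 of all 8914 genes, and DESeq2 called 4, beside 167 of 16195 genes. Without CO A, H2-Eb1 (0.0495) and H2-DMb1 (0.0460) passed, without CO B H2-DMa (0.0479), and without DES A H2-Eb1 (0.0328). Summed myeloid markers were at 1146, 2153, 3262 and 1775 CPM, with 0 of 9 called by edgeR or DESeq2 and 3 with an unadjusted p under 0.05, and plasma cell markers at 619.5, 570.2, 1626 and 5447. Summed basal cell markers were at 0, 89.97, 7058 and 1998 CPM, with 2 of 3 called higher by edgeR and none by DESeq2, and smooth muscle markers at 654, 572, 1325 and 4945, with 0 of 4 called by edgeR, 4 with an unadjusted p under 0.05 and 1 called by DESeq2. Summed T cell markers were at 5.37, 4.34, 24.6 and 60.6 CPM and B cell markers at 0, 16.3, 34.5 and 92.4, highest in DES B as Cd74 and H2-Eb1 were, and 0 of 4 and 2 of 5 of them passed the filter on low counts. The stromal spots of DES thus differed in makeup too, whose part in the class II levels was not tested.

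The contrast of class II RNA between epithelium-rich and other spots differed between conditions. The spot classes themselves were less distinct in DES. Over the 5 epithelial markers, the median log2 difference between them was 1.85 in CO and 0.81 in DES. The part of this in the class II contrast was not tested. In the CO sections, epithelium-rich spots were poorer in these genes than the other spots, with Cd74 at 111 against 200.1 CPM in CO A and 90.2 against 364 in CO B. Of 8 members 6 were lower in epithelium-rich spots, against 24.4% of 13674 genes, with log2 differences of -1.37 for Cd74 (edgeR adjusted p = 5.58e-04), -1.69 for H2-Aa, -1.57 for H2-Ab1, -1.98 for H2-Eb1 and -2.08 for H2-DMa. The value of H2-Oa, -2.99 (edgeR adjusted p = 0.0136), rests on 2 and 0 UMIs and depends on the prior count, and it did not pass without CO B (0.161), with the top 10% (0.0740) or 30% of spots (0.0548) or in DESeq2. H2-DMb1 (-0.46, edgeR adjusted p = 0.0824) and Ciita (-1.22, 0.0906) did not pass. Both passed without CO A (0.00499 and 2.09e-04), and Ciita also without DES A (0.0293) or DES B (0.0321). Of 9 myeloid markers 8 were lower and 1 was higher in epithelium-rich spots. Leaving out CO A or CO B moved the 5 values to between -1.97 and -2.62 or between -0.78 and -1.48, all still called.

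In the DES sections, no difference between epithelium-rich and other spots passed for these genes. Cd74 was at 729 against 920.0 CPM in DES A and 2175 against 2359.9 in DES B, and H2-Aa at 260.4 against 361 and 549 against 682. None of the 8 members was called in the DES sections, against 6.52% of 13674 genes, with log2 differences from -0.16 to -0.59 and edgeR adjusted p from 0.104 to 0.646. At an unadjusted p under 0.05 there were 3, beside 2689 of all 13674 genes, and DESeq2 called 0, beside 432 of 19821 genes. Of 9 myeloid markers 4 were lower in epithelium-rich spots by edgeR and 4 by DESeq2, and 2 of 3 plasma cell markers were lower by edgeR and 1 by DESeq2. Without CO A or without CO B, 5 members were called lower, H2-Aa, H2-Ab1, H2-Eb1, H2-DMa and Cd74, at log2 differences of -0.28 to -0.52.

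The difference between these contrasts was itself tested, as the interaction of spot class and condition. It was positive for 5 of 8 members, against 7.73% of 13674 genes, that is, the ratio of epithelium-rich to other spots was higher in DES. The log2 values were 1.46 ± 0.27 for H2-Eb1 (edgeR adjusted p = 0.00586), 1.54 ± 0.33 for H2-DMa (0.0112), 1.24 ± 0.32 for H2-Aa (0.0247), 1.08 ± 0.31 for Cd74 (0.0389) and 1.09 ± 0.32 for H2-Ab1 (0.0433). H2-DMb1 (0.31, edgeR adjusted p = 0.460), Ciita (0.64, 0.574) and H2-Oa (2.40, 0.175) did not pass. Without CO B the 5 values were 0.48 to 0.97 and without CO A 1.68 to 2.10, all still called, and without CO A H2-Oa (0.0364) and Ciita (0.0198) passed too. With the top 30% of spots in place of 20%, H2-Ab1 (edgeR adjusted p = 0.0671) and Cd74 (0.0697) no longer passed, and with the top 10% H2-Ab1 (0.0792) did not. Of 11 other pathway genes tested, 0 were higher and 2 lower, Ctss (-0.60, edgeR adjusted p = 0.0425) and Ctsl (-1.25, 0.00278). Of 8 interferon gamma genes, 0 were higher and 1 lower, Ifngr2 (-0.83, edgeR adjusted p = 0.0167). The same test gave 6 of 9 myeloid markers higher, with Lyz2 at 1.71 and C1qa at 1.63, and 1 lower, all 4 smooth muscle markers higher and all 5 epithelial markers lower, which choose the spots. Their part in the class II values was not tested.

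**Figure D4:**
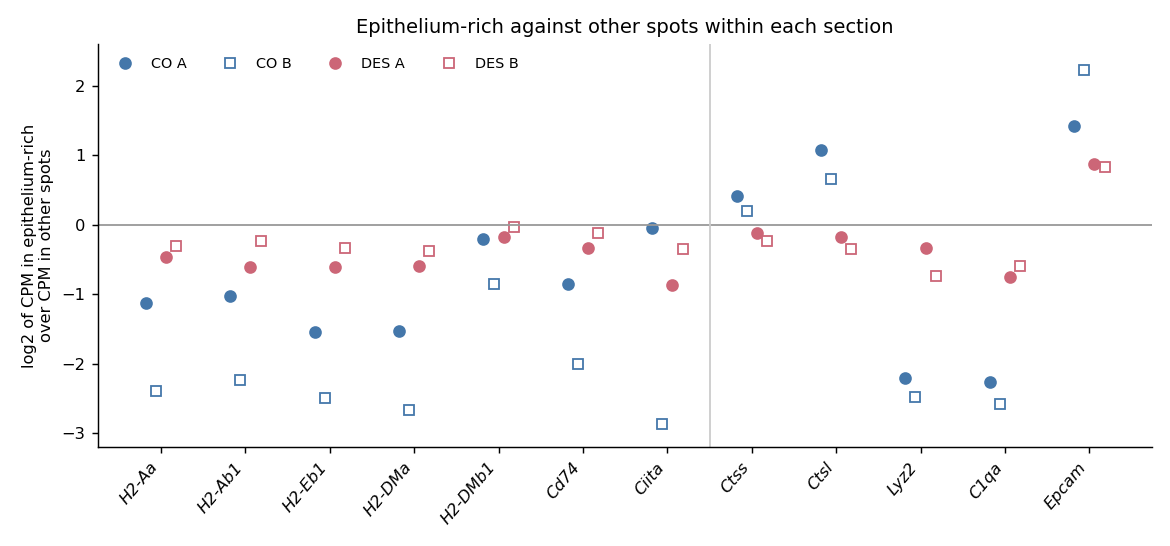
Log2 ratio of the level in epithelium-rich spots to that in the other spots of the same section. Shown are 7 of the 8 genes (H2-Oa left out for lack of UMIs), Ctss, Ctsl, the myeloid genes Lyz2 and C1qa and the epithelial Epcam. Each point is 1 section, CO in blue and DES in red. Cd74 stands at -0.855 and -2.01 in CO A and CO B and at -0.335 and -0.118 in DES A and DES B, and Lyz2 at -2.21, -2.48, -0.333 and -0.733.

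Each section had been divided into 10 spot clusters by the authors, which show how evenly the genes lay. Cd74 ran from 93.5 over a median of 169 to 449 CPM in the clusters of CO A and from 70.8 over 319.9 to 667 in those of CO B. It ran from 272 (a cluster of 2 spots) over 793 to 1377 in those of DES A and from 1037 over 1983 to 3044 in those of DES B. Every cluster of DES B was above every CO cluster. The lowest Cd74 of each CO section lay in an epithelium-rich cluster, CO A cluster 1 and CO B cluster 2, with 4817 and 3333 CPM of summed epithelial markers. The highest cluster of DES B, cluster 2, had 3821 CPM of epithelial and 3354 of basal markers, and its lowest, cluster 7, had 4239 and 9031. For Cd74, the highest cluster of each CO section, and of DES A, was the stromal cluster. Its interval overlapped that of cluster 3 in CO B and of cluster 7 in DES A. The sum of the 3 classical chains was highest in the stromal cluster in CO A only. It was highest in cluster 3 of CO B (836 CPM, against 606 in stromal cluster 6) and cluster 7 of DES A (1901, against 1569.9 in stromal cluster 4).

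Across the clusters with at least 50 spots (10, 9, 8 and 8), the summed CPM of Cd74, H2-Aa, H2-Ab1 and H2-Eb1 was set against marker sums on the log2 scale. For CO A, CO B, DES A and DES B, its correlation with summed myeloid markers was 0.658, 0.964, 0.698 and 0.710. With summed dendritic cell markers the values were 0.843, 0.756, 0.684 and 0.100, with stromal markers 0.595, 0.821, 0.217 and 0.132, and with epithelial markers 0.0344, -0.426, -0.134 and 0.253. Clusters of a section share 1 library and neighbouring spots, and these are descriptions. DES A cluster 8, the richest in myeloid markers at 8629 CPM, held Cd74 at 1192, below its stromal cluster. Of its myeloid sum, 7084 CPM were Lyz2. The genes most like the class II mean over all 40 clusters were Apoe, Lyz2, Tff1, Iglc1, Megf6, Hcst, Gpnmb, Nccrp1, Ighg2c and Cst3, with correlations of 0.834 down to 0.755 among 8996 genes.

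**Figure D5:**
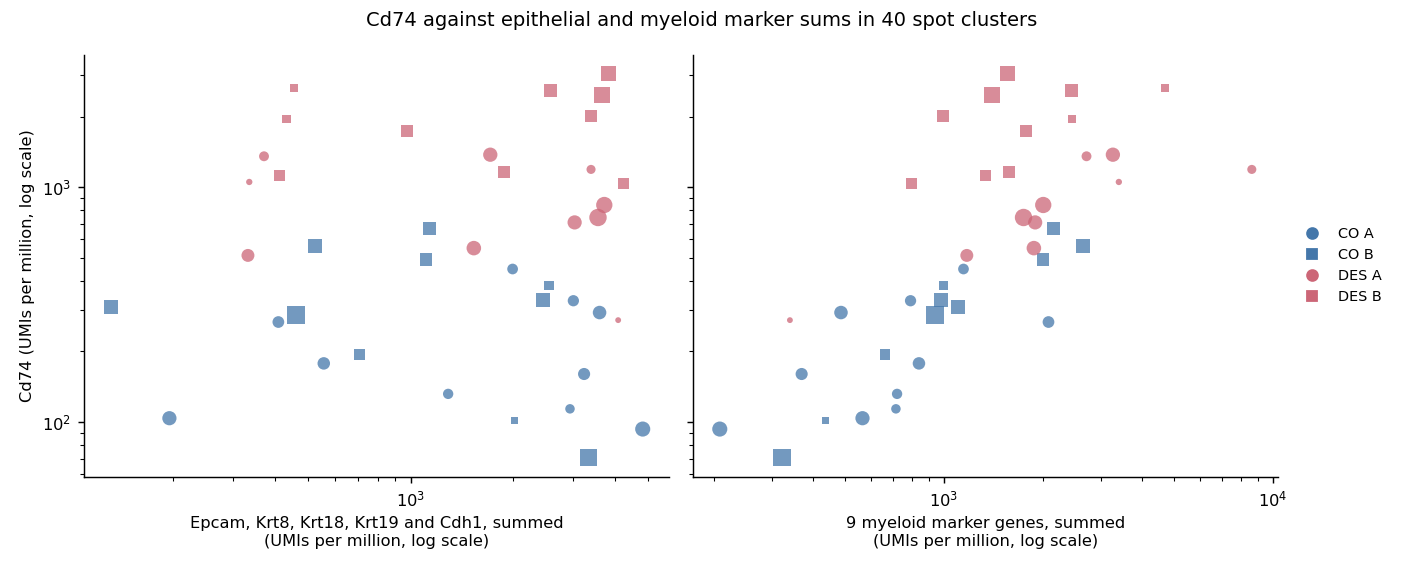
Cd74 level (CPM of summed UMIs, log axis) against summed epithelial markers (left) and summed myeloid markers (right) in the 40 spot clusters of CO A, CO B, DES A and DES B, with point size growing with the number of spots. All DES B clusters, from 1037 to 3044, lie above the highest CO cluster at 667.

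The proportions of the chains differed in 1 section. Per 100 H2-Ab1 UMIs, whole sections held 47.3, 55.2, 44.2 and 96.2 H2-Eb1 UMIs in CO A, CO B, DES A and DES B, while H2-Aa was at 73.6, 71.6, 80.2 and 79.3 and Cd74 at 209, 191, 208 and 282. DES B therefore stood apart in H2-Eb1, and a single mouse gives no replicate of that value.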

How the data were processed

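Per the labels, the authors obtained the cell tables with Cell Ranger 3.0.1 and the Visium tables with Space Ranger 1.2.2, on mm10, and the deposited values are raw UMI counts. Cell types, epithelial clusters and spot clusters are the authors', and 350 cells listed in their metadata had no counts. The authors state that potential doublets were found and removed, and then describe their downstream analysis. The authors' deposited saturation fraction per cell, the share of reads that repeat a UMI, was not used. Whether genes on opposite strands were separated is not given in the sources used here.

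Summed UMIs of a group were expressed as CPM with exact Poisson 95% bounds. Shares used cells thinned to 3000 UMIs (seed 20230) and Clopper-Pearson intervals. The floor for a count of 0 was 3 UMIs. Section sums were tested with edgeR 4.0.16 (TMM, its filter on low counts, quasi-likelihood F-test, Benjamini-Hochberg adjustment at 0.05) in R 4.3.3, with DESeq2 1.42.0 as an alternative, after a test on simulated data. Whole sections, stromal spots and epithelium-rich spots (top 20%) were fitted separately, and epithelium-rich against other spots in 1 model over all sections. Spots were chosen on these counts, which makes p-values within sections likely too small. Python 3.11.15 and scipy 1.17.1 did the rest.

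The members, the gene lists and the tests were chosen with earlier results of these data known. The genes named are the members, 14 pathway and 9 interferon gamma genes, and the 10 genes with the highest correlation with the mean of the classical chains and Cd74 among genes reaching 50 CPM. Markers of other cell types are named where they stand beside a result. The promoter sequences of H2-Ab1, Ciita and Cd74 were not analysed here, and values of 2 genes of these lists are not reported here.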

Additional observations from a re-analysis of the deposited data

Results flagged for a closer look

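The contrast of epithelium-rich with other spots differed between DES and CO, by edgeR's test of the interaction, with log2 values of 1.24 for H2-Aa, 1.09 for H2-Ab1, 1.46 for H2-Eb1, 1.54 for H2-DMa and 1.08 for Cd74. Within the CO sections these 5 genes were lower in epithelium-rich than in other spots, and within the DES sections none of them passed by edgeR or DESeq2 at the top 20% of spots with all sections. All 5 passed there as lower without CO A or without CO B, and H2-Aa, H2-Eb1 and H2-DMa did with the top 10% of spots. The interaction was lost for H2-Ab1 and Cd74 with the top 30% and for H2-Ab1 with the top 10% of spots.

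Cells that carried no cell type lay outside the annotated groups (20134 CO cells with a median of 4138 UMIs, 6611 DES cells with 2178), and the members were higher in them in DES. Cd74 was at 81.5 CPM (80.2 to 82.9) in CO and 667 (659 to 675) in DES, H2-Aa at 30.9 and 141, H2-Ab1 at 29.6 and 149.9, and H2-Eb1 at 16.97 and 83.4. H2-DMa was at 4.96 and 19.7 CPM, H2-DMb1 at 8.55 and 22.2 and Ciita at 0.778 and 3.59. All 6 members past the 10 CPM minimum were at least 2-fold higher, against 4.44% of genes, and H2-Oa had overlapping intervals (0.348 and 0.520). In the same cells the summed myeloid markers were at 112 CPM in CO and 884 in DES and the epithelial markers at 2425 and 2220.2, and their part in the difference was not tested.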

How the results depend on the processing

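In single cells the 6 epithelial members stayed at least 2-fold higher under each alternative tried. In myeloid cells the count of 1 fell to 0 in the mean over cells of counts per 10000. Cd74 was found in 10.4% of CO and 49.5% of DES epithelial cells after thinning to 5000 UMIs, and in 1.09% and 27.6% when at least 2 UMIs were asked for. Leaving out barcodes present in both libraries, or cells with a UMI of any immune list, was chosen after seeing the data, and the latter put 10 in place of 8 DES clusters above every CO cluster for Cd74. Of 405 log2 differences of members over sections, 328 kept direction and side of the threshold, 64 gained a call and 10 lost it, and 3 changed sign. Those 3 changed sign without CO B. With 1 section left out, Ciita ran from -2.79 to 0.02 in epithelium-rich against other spots of CO, and in the interaction H2-DMb1 ran from -0.02 to 0.65 and Ciita from -0.58 to 2.24.

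In whole sections the count of members called was 0, and 7 with DESeq2, 3 with no filter on low counts and 0 to 2 with 1 section left out. In stromal spots it was 0, and 4 with DESeq2, 6 with no filter and 0 to 2. In epithelium-rich spots it was 6, and 5 with the top 30% of spots and 4 to 7 with 1 section left out. Within the CO sections it was 6, and 5 to 8, and within the DES sections 0, and 4 with no filter, 3 with the top 10% of spots and 0 to 5. In the interaction it was 5, and 3 with the top 30% of spots and 5 to 7. The cause of these shifts was not tested. Over all genes, calls went from 747 to 1748 with DESeq2 in whole sections and to 3 to 2822 with 1 section left out, and in stromal spots from 130 to 714 with no filter and to 39 to 517. In epithelium-rich spots they went from 836 to 169 to 3217. They went from 6979 to 4250 with DESeq2 within CO, from 891 to 432 with DESeq2, 1509 with no filter, 567 with the top 10% of spots and 323 to 2630 with 1 section left out within DES, and from 2133 to 927 with DESeq2, 1024 with the top 10% of spots and 1104 to 4246 in the interaction.

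With the section letter as a replicate block, 6 members were called in each of the 3 fits. Over all genes, this setting called 527 of 14098 in whole sections, 378 of 8914 in stromal spots and 832 of 11733 in epithelium-rich spots. Deviations of sections with the same letter correlated at only -0.0254, 0.0898 and 0.0337 in these 3 fits, so the letter is a number and not a pairing.

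With 2 mice against 2 no exact permutation test can reach 0.05, and every p rests on a spread pooled over genes. Each section is 1 mouse and each single-cell library 1 pool, so counting intervals leave out the spread between mice. H2-Oa had too few UMIs in epithelium-rich and stromal spots to be tested there, and Ciita in stromal spots.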
